A study of Mus musculus with 12 samples.

Results

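The genes described here encode the machinery that moves a newly made secretory protein into the endoplasmic reticulum (ER) and onward to the Golgi. They were chosen by symbol: the Sec genes with a numbered name, the Ssr, Spcs, Srp and Tram families, the COPI subunits, the Tmed (p24) genes and the numbered Trappc genes. Of 37991 genes in the count table, 78 carried such a symbol and 76 of these had at least 50 counts summed over the 12 libraries. The 2 left out were Sec1, with 20 counts, and Tmed11, with 1 count, and just above the limit stood Sec14l5, with 80 counts, and Sec14l3, with 182 counts. By role, 10 of the 76 belong to the signal recognition particle and its receptor, 12 to the translocation channel, 5 to signal peptidase, 12 to the COPII coat, 3 to the Sec22 SNARE proteins, 10 to the p24 cargo receptors, 8 to COPI and 11 to the TRAPP tethers. The remaining 5, Sec14l1 to Sec14l5, are lipid-binding proteins that only share the name.

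RNA was sequenced in bulk from pancreatic islets of male C57BL/6 mice. Tg7 mice overexpress miR-7a2 in their β-cells only, and wild-type (Wt) littermates served as controls, at 2w and 12w of age, with 3 libraries in each of the 4 groups (the 12w Wt libraries are numbered 1, 2 and 4). According to the methods each library came from the pooled islets of several animals, so the p-values measure the spread between pools, and islets hold other endocrine, endothelial and stromal cells that do not carry the transgene's expression. In such bulk RNA, fewer β-cells and less RNA per β-cell cannot be told apart. Adjusted p-values are those of edgeR's quasi-likelihood test with Benjamini-Hochberg adjustment over 15961 tested genes, among them all 76 members, and a gene is said to have risen or fallen where that value was below 0.05. Levels are normalised read counts (CPM), that is, counts relative to the library total after TMM scaling, which corrects for a few very abundant genes taking a larger share of the reads.

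A secretory protein such as proinsulin begins with a signal peptide, which the signal recognition particle binds on the ribosome and brings to its receptor on the ER membrane. The chain then enters the ER through the Sec61 channel and signal peptidase cuts the signal peptide off. COPII-coated vesicles carry the folded protein from ER exit sites towards the Golgi, COPI-coated vesicles bring escaped proteins and receptors back, p24 proteins act as cargo receptors in both, and TRAPP complexes tether the arriving vesicles. β-cells devote much of this machinery to insulin.

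Since the transgene raises miR-7, the 3′ UTRs were searched for the letters that pair with its seed (bases 2 to 8, in capitals) in the mature sequence, taken from RefSeq on GRCm38.p6 at chr7:78888295-78888317, plus strand.
mmu-miR-7a-5p: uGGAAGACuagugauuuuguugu
The matching 7 letters, GTCTTCC, occurred in an annotated 3′ UTR of 13 of the 75 members that have one (17.3%), against 2074 of 14632 tested genes (14.2%). The sites in members that fell and those in Tram2, which rose at 12w, follow. They are shown because these genes were called, and the sites not shown hold the same letters. Positions are in the mm9 build (NCBIM37), and letters run 5′ to 3′ on the gene's strand, with the match in capitals.
Sec61a1, chr6:88453890-88453911, minus: tccacaggGTCTTCCcactgcc
Sec61a1, chr6:88454514-88454535, minus: ccacctctGTCTTCCtactgag
Sec24a, chr11:51505893-51505914, minus: caagattgGTCTTCCtttttac
Sec24c, chr14:21513840-21513861, plus: ggagccctGTCTTCCggtgcca
Tmed9, chr13:55698684-55698705, plus: ttccttctGTCTTCCtttgtta
Sec14l1, chr11:117019165-117019186, plus: agtcctcaGTCTTCCtagcacc
Tram2, chr1:20988784-20988805, minus: agctccttGTCTTCCtcctatg
Tram2, chr1:20991364-20991385, minus: tcctgattGTCTTCCtgctcct
Sec62, Sec63, Sec31a, Sec22a, Sec14l2, Copz1 and Trappc5 also held the letters and did not pass the test at either age. The match was followed by an A only in 1 site each of Sec22a and Sec63, and in none of the sites shown. Sec22a gave log2 fold changes of 0.22 at 2w and −0.18 at 12w, and Sec63 gave −0.35 and −0.19. A match of letters is a description and not a measured site. At 2w 9 of the 13 members with one stood below zero and 4 fell, against 49 and 7 of the 62 members without one, with median log2 fold changes of −0.29 and −0.23. At 12w 10 of the 13 stood below zero, 5 fell and 1 rose, against 41, 8 and 3 of the 62, with medians of −0.24 and −0.15. The 2 sets were not tested against each other.

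In 2w Tg7 islets, 12 of the 76 members fell and none rose, where 4.55% of all tested genes fell and 6.07% rose. Sec61a1, the pore of the channel, Sec23b of the COPII coat, the p24 receptor Tmed9 and the signal peptidase subunits Sec11c and Spcs2 fell most. Of the 76, 59 stood below zero, and the median log2 fold change was −0.24 against 0.03 over all tested genes. Without any test, the 3 Tg7 libraries lay below the 3 Wt libraries in 40 members (52.6%) and above them in 7, against 18.1% and 17.8% of all genes. The summed level of the members was 10570 ± 359 CPM in Wt and 8727 ± 418 CPM in Tg7 islets (SD, n = 3 each).

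At 12w, 14 members fell and 4 rose, against 11.2% and 12.5% of all tested genes, and the median log2 fold change was −0.18 against −0.01. Sec16b and Sec24a of the COPII coat fell most among those called, while the p24 receptor Tmed6 rose most. The Tg7 libraries lay below all Wt libraries in 22 members (28.9%) and above them in 6, where 16.3% and 20.7% of all genes did so. The 2 ages shared 9 falling members, Sec61a1, Srp9, Spcs3, Sec16a, Sec16b, Sec23b, Sec24c, Tmed9 and Sec14l1, with 3 more called at 2w only, 9 more at 12w only and 55 at neither.

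These levels depend on how the libraries are put on 1 scale. The insulin genes Ins1 and Ins2 took 10.1% to 15.4% of the counts of the 2w Wt libraries, 1.84% to 4.09% of the 2w Tg7, 14.8% to 30.0% of the 12w Wt and 8.08% to 8.24% of the 12w Tg7 libraries. Scaled by library size alone, the median of all tested genes moved to 0.19 at 2w and 0.43 at 12w, and the members then gave 2 up and 5 down at 2w and 20 up and 2 down at 12w. With the insulin counts taken out of the library size, a setting chosen after the data were seen, the median of all genes was 0.05 and 0.16 and the members gave 0 up and 10 down at 2w and 6 up and 7 down at 12w. A scaling factor moves all genes of a library alike, so it hardly changes where a group stands relative to the median of all genes. Under TMM the median of signal peptidase minus that of all genes was −0.65 at 2w and −0.04 at 12w, of COPII −0.47 and −0.53, of the signal recognition particle and its receptor −0.41 and −0.30, and of the channel group −0.34 and −0.06. It was −0.25 and −0.17 for COPI, −0.19 and −0.03 for p24, −0.13 and −0.13 for TRAPP and −0.11 and −0.14 for Sec22. Without 12w Wt replicate 4 the 12w values were −0.37 for COPII and for the signal recognition particle, −0.08 for TRAPP and −0.06 for COPI, and between −0.03 and 0 for p24, Sec22, signal peptidase and the channel group. Of the 12 calls at 2w 5 held in every alternative setting and with each library left out (Sec61a1, Sec11c, Spcs2, Sec23b and Tmed9), and of the 18 at 12w 4 did (Sec16b, Sec24a, Tmed3 and Tmed6).

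**Figure D1:**
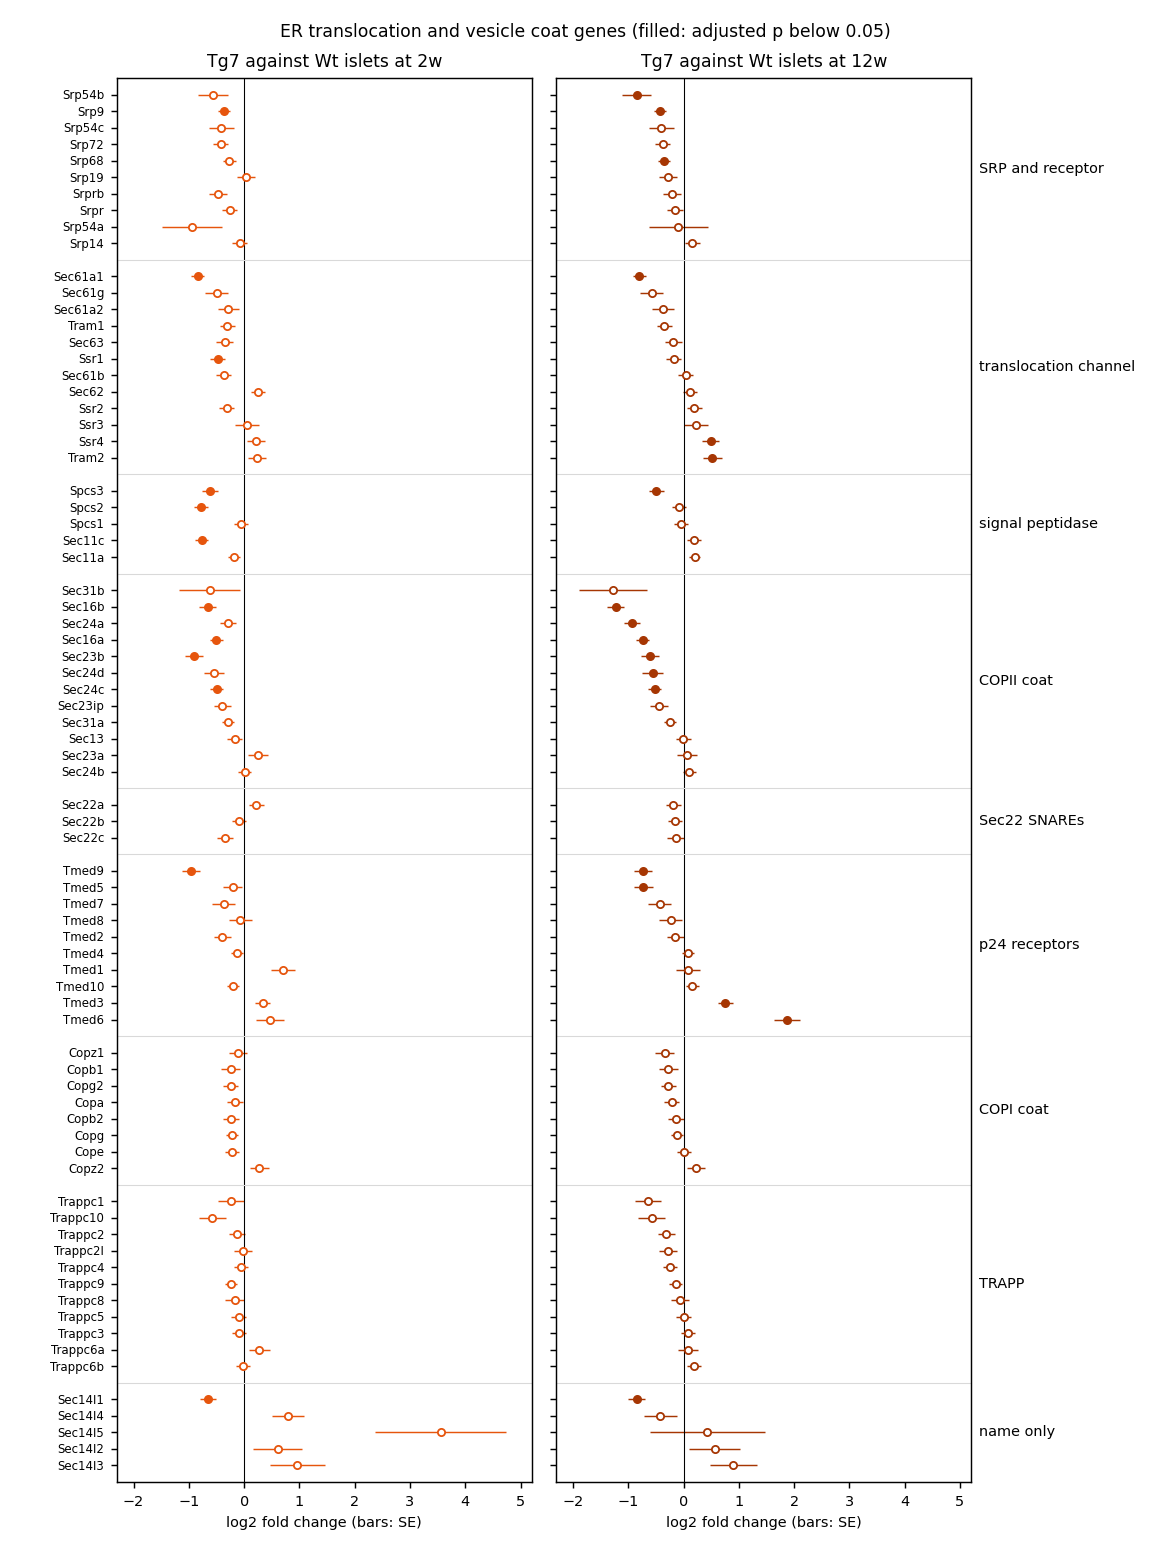
Log2 fold change of Tg7 against Wt islets for each of the 76 members, at 2w (left) and 12w (right), grouped by role, with standard errors from edgeR and filled points where the adjusted p was below 0.05. At 2w the 12 filled points are all left of zero, and at 12w 14 are left and 4 right, with none in the COPI, TRAPP and Sec22 groups.

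Of the signal recognition particle and its receptor, 1 of 10 members fell at 2w and 3 fell at 12w, with group medians of −0.39 and −0.32. Srp9, which with Srp14 forms the part that slows the ribosome, had 83.4, 74.5 and 76.3 CPM in the 2w Wt libraries and 63.5, 61.0 and 57.9 CPM in the 2w Tg7 libraries. It fell by 0.36 ± 0.11 (SE) on the log2 scale (adjusted p = 0.044), and at 12w, where Wt libraries held 137 to 140.5 CPM and Tg7 libraries 92.8 to 108 CPM, by 0.43 ± 0.11 (adjusted p = 0.0093), so the groups did not overlap at either age. Srp14 gave −0.08 at 2w and 0.16 at 12w and passed at neither. Srp68, part of the scaffold of the particle, had 167 to 175 CPM in the Wt and 140 to 147 CPM in the Tg7 libraries at 2w, then 196 to 245 CPM and 165 to 172 CPM at 12w, and fell at 12w only (log2 fold change −0.35, adjusted p = 0.035). Scaled by library size alone, Srp68 and Srp9 changed sign at 12w (0.10 and 0.010). Srp54b, a copy of the subunit that binds the signal peptide, fell from 17.0 ± 3.65 to 9.46 ± 1.13 CPM at 12w (adjusted p = 0.034), but mm9 holds the near-identical copies Srp54a, Srp54b and Srp54c, among which the counting could divide reads. Srpr, the receptor subunit that docks the particle and the highest of the group per length at 124 CPM per kb, had log2 fold changes of −0.26 and −0.16 and did not pass. The Srp9 call at 2w was lost without any library other than the 12w Wt libraries (log2 fold change −0.40 to −0.31 then), the Srp9 call at 12w without Tg7 replicate 2 (−0.36), the Srp68 call without any library but Wt 12w 1 and 4 and Wt 2w 1 (−0.37 to −0.24), and the Srp54b call without any 12w Tg7 library, Wt 12w replicate 4 or Wt 2w replicate 3 (−0.92 to −0.65).

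Sec61a1 (ENSMUSG00000030082, mm9 chr6:88453595-88468899, minus strand), the pore-forming subunit of the channel, was the 1 gene of the 12 in the channel group called at both ages. Its level was 358, 423 and 419 CPM in the 2w Wt libraries and 243, 211 and 216 CPM in the 2w Tg7 libraries, and at 12w 447, 485 and 484 CPM against 267, 275 and 271 CPM. Every Tg7 library lay below every Wt library of its age by a wide gap. The gene fell by 0.84 ± 0.11 at 2w (adjusted p = 0.00044) and by 0.80 ± 0.11 at 12w (adjusted p = 0.00022), a call that held with each of the 12 libraries left out and was missed only at 12w by library-size scaling (−0.36, adjusted p = 0.096). The difference between the 2 effects was 0.04 ± 0.16 and did not pass (adjusted p = 0.94).

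Sec61a2, Sec61b, Sec61g, Sec62 and Sec63 did not pass at either age. Sec61a2, the other α subunit, had 32.9 ± 2.94 and 27.0 ± 1.37 CPM at 2w (log2 fold change −0.28 ± 0.20, adjusted p = 0.39), and since 23.9% of its exon bases are shared with Nudt5 on the opposite strand and no source used here tells whether reads were counted by strand, part of its reads may not be its own. The same limit holds for Tmed1 (22.65%, with Dnm2), Copg2 (20.19%, with Mest) and Spcs1 (17.85%, with Glt8d1). Srprb shares 20.99% of its exon bases with Trf on the same strand. The small subunits Sec61b and Sec61g stood at −0.37 and −0.50 at 2w and 0.04 and −0.57 at 12w, none below the threshold. Without Wt replicate 4 at 12w, Sec61a2 and Sec61g passed at 12w (−0.62 and −0.80), and Sec61b, Sec61g, Sec63 and Ssr2 passed at 2w (−0.38, −0.50, −0.35 and −0.32). Without Wt replicate 1 at 12w, Sec61g also passed at 2w (−0.50). Sec62, which helps short precursors into the channel, and Sec63, which brings the chaperone BiP to it, gave 0.25 and −0.35 at 2w.

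The translocon-associated proteins and TRAM proteins, which sit beside the channel and aid particular precursors, split in direction. Ssr1 fell at 2w, from 301 ± 21.8 to 216 ± 26.9 CPM (log2 fold change −0.48, adjusted p = 0.040). Its partner Ssr4 had 304, 291 and 195 CPM in 12w Wt and 408, 362 and 337 CPM in 12w Tg7 libraries and rose by 0.49 ± 0.16 (adjusted p = 0.041). Ssr2, the highest of the channel group at 216 CPM per kb, gave −0.32 at 2w and 0.19 at 12w and did not pass. Tram2, which is known for its part in collagen synthesis, had 9.96, 7.94 and 8.40 CPM in 12w Wt and 12.9, 14.4 and 10.2 CPM in 12w Tg7 libraries and rose by 0.52 ± 0.18 (adjusted p = 0.047). These 3 calls were close to the threshold: the Ssr1 call was lost without any 2w Wt library, Tg7 2w replicates 2 or 3 or Tg7 12w replicates 2 or 3 (−0.53 to −0.43), the Ssr4 call without any 2w Wt or 12w Tg7 library or Wt 12w replicate 4 (0.31 to 0.55), and the Tram2 call without any 2w Wt library, Tg7 2w replicate 2, Wt 12w replicates 2 or 4 or Tg7 12w replicates 1 or 2 (0.41 to 0.52). Markers of stellate cells and fibroblasts, which make collagen, moved with Tram2: 8 of 9 rose at 12w, their summed level was 87.5 to 149 CPM in Wt and 385 to 407 CPM in Tg7 libraries, and their part in the Tram2 value was not tested.

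**Figure D2:**
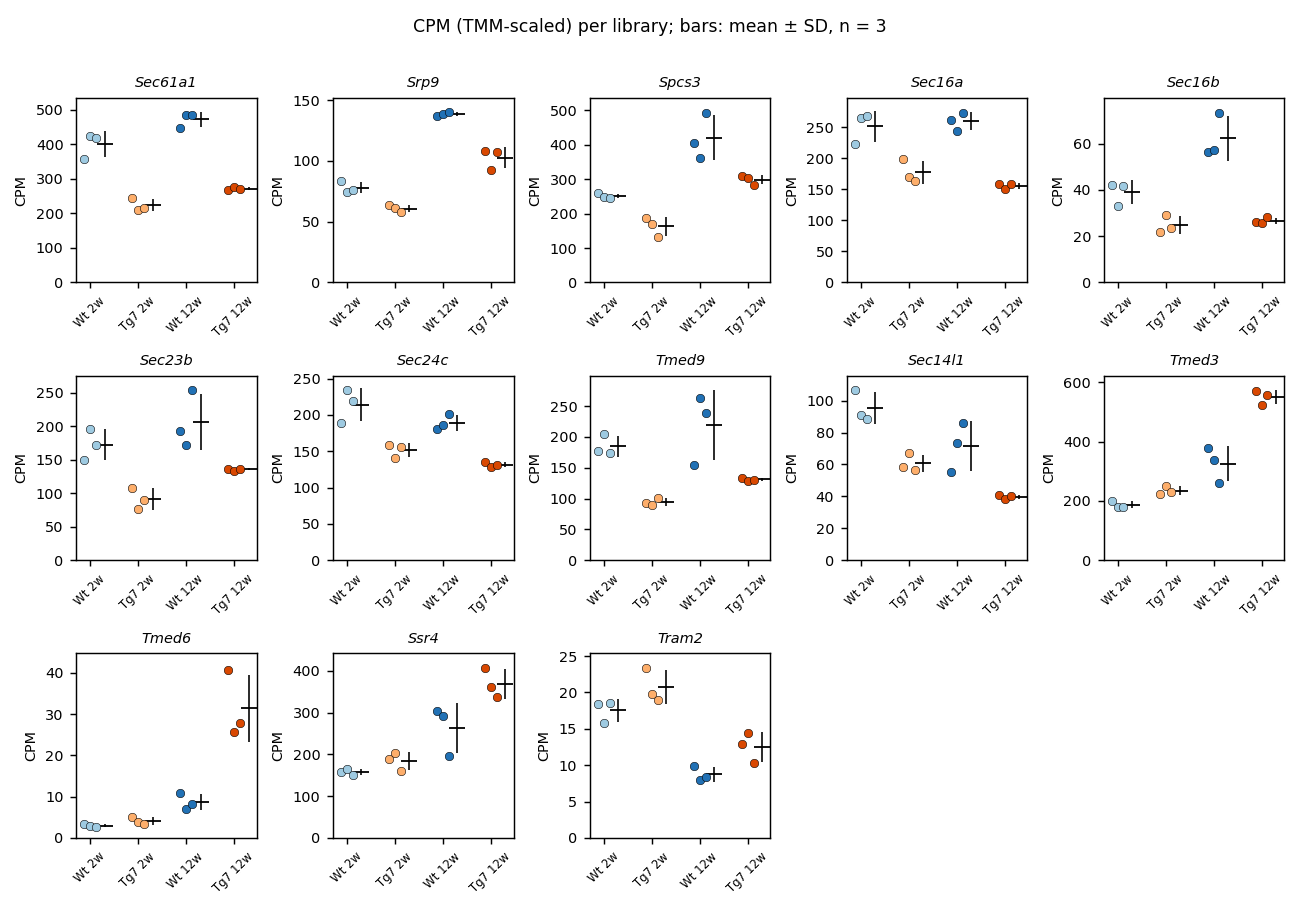
Level in CPM (TMM-scaled, linear axes from 0) of the 9 members that fell at both ages and the 4 that rose at 12w, with a point for each library and the mean ± SD of 3 libraries beside it. In the first 9 panels the Tg7 points lie below the Wt points of the same age, and in the Tmed6 panel the 12w Tg7 libraries reach 25.7 to 40.7 CPM while all others stay at 10.8 CPM or less.

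The signal peptidase calls were not the same at both ages. At 2w 3 of its 5 subunits fell, with a group median of −0.62, and at 12w only Spcs3 did, with a group median of −0.05. Sec11c, a catalytic subunit, had 94.8, 88.3 and 91.5 CPM in 2w Wt and 59.8, 51.4 and 50.1 CPM in 2w Tg7 libraries and fell by 0.77 ± 0.12 (adjusted p = 0.0012). At 12w it had 158, 200 and 162 CPM in Wt and 203, 195 and 195 CPM in Tg7 libraries, which overlap, with a log2 fold change of 0.19 ± 0.12 (adjusted p = 0.28). Its effect at 12w exceeded that at 2w by 0.96 ± 0.17 (adjusted p = 0.014), the only such difference among the 76 members. That share of 1.32% is near the 1.18% of all tested genes that had one, while 0.871% had one upwards. That difference passed in each alternative setting and with each library left out. Without Tg7 2w replicate 1 or 12w Wt replicates 2 or 4, 2 members had one.

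Spcs2, which supports the complex from the cytosolic side and was its highest subunit per length at 191 CPM per kb, did not pass the test of the difference. It fell at 2w from 262, 271 and 234 CPM to 159, 153 and 136 CPM (log2 fold change −0.78 ± 0.13, adjusted p = 0.0015) and gave −0.08 at 12w, with a difference of 0.70 ± 0.18 (adjusted p = 0.078) that passed without 12w Wt replicate 4 (0.77). Spcs3 fell at both ages, by 0.62 ± 0.14 (adjusted p = 0.013) and 0.49 ± 0.14 (adjusted p = 0.023). The other catalytic subunit Sec11a gave −0.19 and 0.20 and Spcs1 −0.06 and −0.05, none of them called. The Spcs3 call was lost at 2w without Wt replicate 1 (−0.61) and at 12w without Wt replicate 4 or any Tg7 library (−0.50 to −0.36). It was also lost under library-size scaling at both ages (−0.46 and −0.057), and at 12w with replicate number as a block (−0.30, adjusted p = 0.091) and with insulin taken out of the library size (−0.32).

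**Figure D3:**
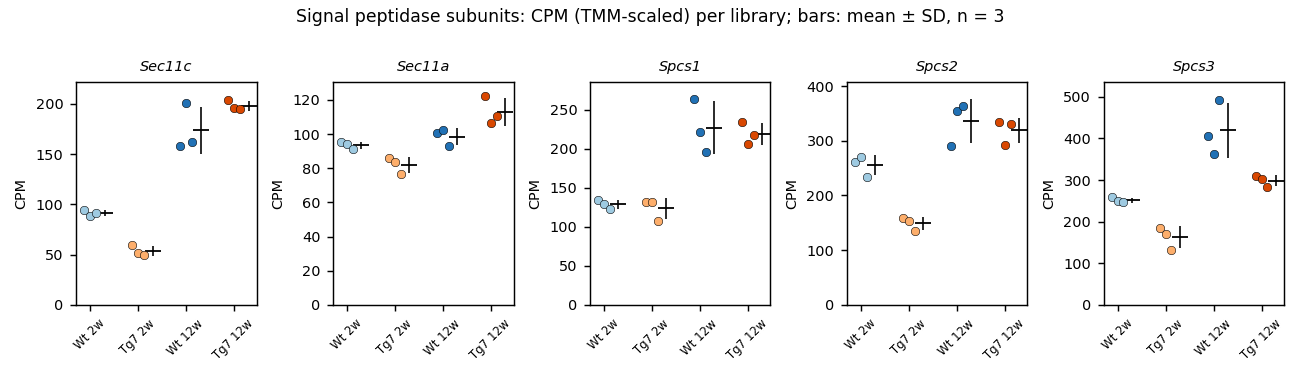
Level in CPM (TMM-scaled, linear axes from 0) of the 5 signal peptidase subunits, with a point for each library and the mean ± SD of 3 libraries beside it. Sec11c and Spcs2 are lower in the 2w Tg7 than in the 2w Wt libraries and overlap at 12w, while Spcs3 is lower in Tg7 at both ages.

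The COPII coat held the most calls in number: 4 of 12 members fell at 2w and 6 at 12w, with medians of −0.45 and −0.54. As a share, signal peptidase had more at 2w (60% against 33.3%). Sec16a and Sec16b, the scaffolds that mark ER exit sites, both fell. Sec16a had 223, 264 and 268 CPM in 2w Wt and 199, 171 and 163 CPM in 2w Tg7 libraries, and 244 to 272 CPM against 151 to 158 CPM at 12w, changes of −0.50 ± 0.12 (adjusted p = 0.015) and −0.74 ± 0.12 (adjusted p = 0.00055). Sec16b, the shorter form, had 56.3, 57.2 and 73.4 CPM in 12w Wt and 26.0, 25.6 and 28.1 CPM in 12w Tg7 libraries. It fell by 0.65 ± 0.15 at 2w (adjusted p = 0.016) and by 1.23 ± 0.16 at 12w (adjusted p = 8.6e-05), and the call at 12w held in every setting and with every library left out. At 2w the calls depended on single libraries: that of Sec16a was lost without Wt replicates 2 or 3 or Tg7 replicates 2 or 3 (−0.48 to −0.46) and that of Sec16b without Wt replicates 1 or 3 (−0.60).

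The inner layer of the coat, made of Sec23, which drives GTP hydrolysis by Sar1, and Sec24, which binds cargo, held both called and uncalled paralogues. Sec23b had 149, 196 and 171 CPM in 2w Wt and 108, 75.7 and 90.1 CPM in 2w Tg7 libraries, a change of −0.91 ± 0.16 (adjusted p = 0.0032) that held in every setting and with every library left out. At 12w it fell by 0.61 ± 0.16 (adjusted p = 0.016), a call lost without any of the 3 Tg7 libraries (−0.61 to −0.59), under library-size scaling (−0.18), with replicate number as a block (−0.43, adjusted p = 0.072) and with insulin taken out of the library size (−0.43). Sec23a gave 0.25 and 0.06 and did not pass. Within each library the level of Sec23b per length, relative to Sec23a, was 2.74 ± 0.53 in 2w Wt against 1.20 ± 0.13 in 2w Tg7 and 3.17 ± 0.30 in 12w Wt against 1.95 ± 0.03 in 12w Tg7 (SD, n = 3), with no overlap at either age, and this ratio is free of any scaling between libraries.

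Among the cargo-binding subunits, Sec24a had 103, 68.0 and 82.9 CPM in 12w Wt and 44.6, 46.1 and 41.5 CPM in 12w Tg7 libraries. It fell by 0.94 ± 0.14 (adjusted p = 0.00040), a call kept in every setting and with every library left out, and gave −0.29 ± 0.14 at 2w (adjusted p = 0.20). Sec24b gave 0.01 and 0.10, and the ratio of Sec24a to Sec24b per length was 0.719 ± 0.196 against 0.343 ± 0.0217 in Wt and Tg7 at 12w. Sec24c fell at both ages, by 0.50 ± 0.11 (adjusted p = 0.012) and 0.52 ± 0.11 (adjusted p = 0.0044), from 189 to 234 CPM down to 140 to 158 CPM at 2w. The 2w call of Sec24c was lost without Wt replicates 2 or 3 or Tg7 replicate 2 (−0.49 to −0.44), and its 12w call at library-size scaling (−0.084, and −0.34 at 2w, also not called) and with insulin taken out of the library size (−0.35). Sec24d, which shares 8.38% of its exon bases with Mettl14 on the opposite strand, gave −0.55 (adjusted p = 0.068) and −0.56 (adjusted p = 0.039). The 12w value of Sec24d rested in large part on Wt replicate 4, at 239 CPM against 150 and 139 CPM, and was −0.27 without it (adjusted p = 0.14). The call was also lost without any 12w Tg7 library, Wt 2w replicates 2 or 3 or Tg7 2w replicate 2 (−0.59 to −0.53). In 5 of 8 other settings the call was lost too (−0.59 to −0.14). Among these was replicate number as a block (−0.25, adjusted p = 0.22), which is close to leaving out Wt replicate 4 and not separate from it. At 2w it passed without Tg7 replicate 1 or 12w Wt replicates 2 or 4 (−0.66 to −0.55). The outer layer passed at neither age: Sec31a, the highest COPII gene at 93.5 CPM per kb, gave −0.29 and −0.24, and Sec13 −0.17 and −0.01. Without 12w Wt replicate 4, Sec31a passed at 2w (−0.29).

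**Figure D4:**
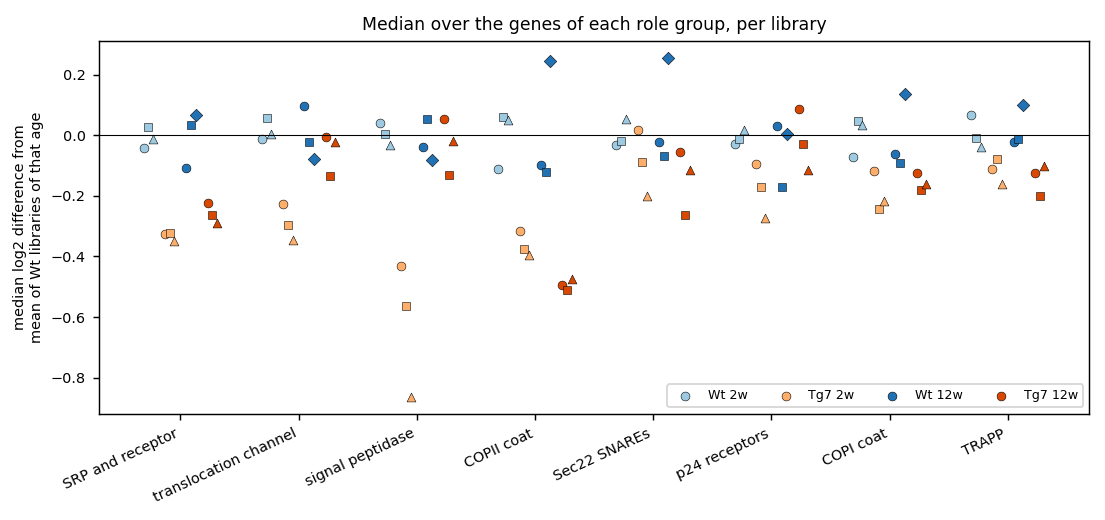
Median over the genes of each role group of the log2 difference (TMM-scaled CPM) from the mean of the Wt libraries of the same age, with a point for each library and replicates 1, 2, 3 and 4 drawn as circles, squares, triangles and diamonds. The COPII median is −0.39 to −0.32 in the 2w Tg7 libraries and −0.51 to −0.48 in the 12w Tg7 libraries, and the diamond of 12w Wt replicate 4 lies above the other 12w Wt libraries in the COPII, Sec22, COPI, TRAPP and signal recognition particle groups.

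The p24 cargo receptors moved in both directions. Tmed9 had 177, 204 and 174 CPM in 2w Wt and 93.1, 89.7 and 101 CPM in 2w Tg7 libraries and fell by 0.97 ± 0.16 (adjusted p = 0.0021), the largest fall among the members called at 2w, which held in every setting and with every library left out. At 12w it fell by 0.74 ± 0.16 (adjusted p = 0.0051), with 154 to 262 CPM in Wt and 129 to 134 CPM in Tg7 libraries. Tmed5 fell at 12w from 115 ± 33.2 to 69.2 ± 6.80 CPM (−0.73, adjusted p = 0.0091), a call lost without Tg7 replicate 2 (−0.65). Tmed10 and Tmed2, the p24 partners found in most complexes, gave −0.20 and −0.40 at 2w and 0.16 and −0.15 at 12w and did not pass. Without Tg7 2w replicate 1 or 12w Wt replicate 4, Tmed2 passed at 2w (−0.55 and −0.40).

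Tmed3 and Tmed6 rose instead. Tmed6 had 10.8, 7.07 and 8.20 CPM in 12w Wt and 40.7, 25.7 and 27.9 CPM in 12w Tg7 libraries, a rise of 1.86 ± 0.24 on the log2 scale (adjusted p = 8.9e-05), while 2w libraries held 2.66 to 5.12 CPM in either genotype. Tmed3, the highest p24 gene at 245 CPM per kb, had 380, 337 and 262 CPM in 12w Wt and 569, 525 and 556 CPM in 12w Tg7 libraries and rose by 0.75 ± 0.14 (adjusted p = 0.0013). Both 12w calls held in every setting and with every library left out. At 2w Tmed3 gave 0.33 (adjusted p = 0.13), with all Tg7 libraries above all Wt libraries, and passed without 12w Wt replicate 4. The effects on Tmed6 at the 2 ages differed by 1.40 ± 0.35, which missed the threshold (adjusted p = 0.075) and passed without Tg7 2w replicate 1 (1.62).

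COPI, the Sec22 proteins and the TRAPP complexes held 22 members, none of which passed at either age. Without 12w Wt replicate 4, 1 TRAPP gene fell at each age and 1 COPI gene, Copz1, at 12w (−0.52). The 8 COPI genes lay between −0.24 and 0.28 at 2w and between −0.35 and 0.23 at 12w, with Copb2, the highest at 126 CPM per kb, at 409 ± 18.9 and 347 ± 16.9 CPM at 2w. The 11 TRAPP genes lay between −0.58 and 0.28 at 2w and between −0.64 and 0.19 at 12w, and Trappc2l, the highest per length at 58.6 CPM per kb, gave −0.02 and −0.29. Sec22b, the SNARE of ER-to-Golgi vesicles, gave −0.09 and −0.15. A value that misses the threshold does not show that these genes were equal in the 2 genotypes, since the standard errors of the COPI genes were 0.109 to 0.176 and 7 of 8 stood below zero at 2w. The genes matched by name alone included 1 fall at both ages, Sec14l1, by 0.65 ± 0.15 (adjusted p = 0.013) and 0.85 ± 0.15 (adjusted p = 0.0012). At 2w it did not pass without Wt replicate 1 (−0.56).

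Ratios between paralogues within a library do not depend on scaling. The ratio of Sec61a2 to Sec61a1 per length was 0.139 ± 0.00863 in 2w Wt and 0.204 ± 0.0132 in 2w Tg7 and 0.111 ± 0.0369 and 0.147 ± 0.00916 at 12w. Sec11c relative to Sec11a was 1.47 ± 0.0508 in Wt and 0.979 ± 0.0614 in Tg7 at 2w, 2.63 ± 0.291 and 2.63 ± 0.128 at 12w. Tram2 relative to Tram1 stood at 0.0253 ± 0.000503 in Wt against 0.0368 ± 0.00208 in Tg7 at 2w, and at 0.00736 ± 0.000461 and 0.0134 ± 0.00267 at 12w. Copz2 relative to Copz1, the small COPI subunits, stood at 0.159 ± 0.0186 against 0.209 ± 0.0221 at 2w, and at 0.247 ± 0.0433 and 0.358 ± 0.0401 at 12w, although neither gene passed by itself. Of 14 pairs examined, the genotypes did not overlap at either age in 5 (Sec61a2/Sec61a1, Tram2/Tram1, Copz2/Copz1, Sec23b/Sec23a and Sec24a/Sec24b), did not overlap at 1 age in 4 (Sec11c/Sec11a, Sec16b/Sec16a, Sec22a/Sec22b and Sec22c/Sec22b) and overlapped at both in 5 (Sec24d/Sec24c, Sec31b/Sec31a, Copg2/Copg, Copb2/Copb1 and Trappc6b/Trappc6a). No test was run on the ratios, and no share over other gene pairs was worked out. For single genes, the Tg7 libraries lay above all Wt libraries in 17.8% of all genes at 2w and 20.7% at 12w. They lay below in 18.1% and 16.3%.

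**Figure D5:**
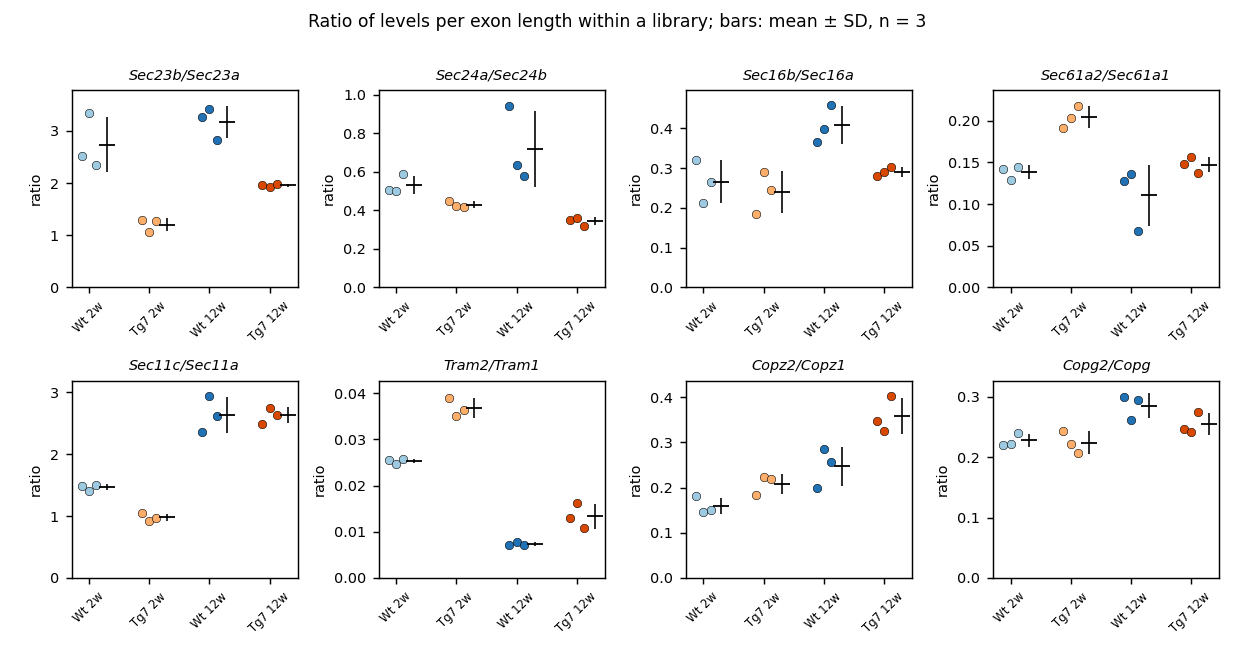
Ratio of the levels per exon length of 8 paralogue pairs, a point for each library, with the mean ± SD of 3 libraries beside it (linear axes from 0, no units). Sec23b/Sec23a and Sec24a/Sec24b are lower and Sec61a2/Sec61a1, Tram2/Tram1 and Copz2/Copz1 higher in Tg7 than in Wt libraries at both ages, and Copg2/Copg overlaps.

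Other genes of the route, 83 in lists of known partners, gave 15 falls and no rise at 2w and 26 falls and 3 rises at 12w, with medians of −0.25 and −0.23. That is 18.1% falling at 2w, and 31.3% falling and 3.61% rising at 12w, where 4.55% of all tested genes fell at 2w and 11.2% fell and 12.5% rose at 12w. At 2w 7, 6, 7, 8 and 8 were called without Wt replicates 1, 2 and 3 and Tg7 replicates 2 and 3, and 30 without 12w Wt replicate 4. At 12w 17, 13 and 13 were called without Tg7 replicates 1, 2 and 3. The small GTPases, exchange factors and GAPs of the coats gave 3 falls of 18 at 2w and 10 at 12w, among them Gbf1, which activates Arf for COPI, by 0.69 ± 0.11 (adjusted p = 0.0017) and 0.76 ± 0.11 (adjusted p = 0.00032). That list also holds Arcn1, the δ subunit of COPI, which the symbol rule did not take and which was named after its values were seen: it gave −0.36 at 2w and fell at 12w (−0.60 ± 0.18, adjusted p = 0.028). Its 12w value was −0.27 without Wt replicate 4 (adjusted p = 0.046) and the call was lost without any 12w Tg7 library (−0.60 to −0.58), and at 2w it passed without 12w Wt replicate 4 (−0.36). The cargo receptors and tethers gave 7 falls of 35 at 2w and 11 falls and 2 rises at 12w. Lman1, the lectin receptor that carries glycoproteins out of the ER, had 328, 395 and 358 CPM in 2w Wt and 198, 177 and 183 CPM in 2w Tg7 libraries and fell by 0.95 ± 0.15 (adjusted p = 0.0012), and by 0.71 ± 0.15 at 12w (adjusted p = 0.0035). The related lectin Lman2 fell by 0.70 and 0.60.

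Ergic1, a cycling protein of the ER-Golgi intermediate compartment, fell from 177, 182 and 184 CPM to 92.2, 98.9 and 89.9 CPM at 2w (−0.95 ± 0.12, adjusted p = 0.00024) and gave 0.08 at 12w. The difference of 1.03 ± 0.17 passed (adjusted p = 0.0081), as in Sec11c, and so did those of the oligosaccharyltransferase subunits Rpn1 (0.77, adjusted p = 0.029) and Ddost (0.82, adjusted p = 0.036), the 3 such genes of the 83. The Rpn1 and Ddost differences no longer passed without 8 and 9 of the 12 libraries in turn (0.69 to 0.82 and 0.74 to 0.84). Ergic3 rose at 12w by 0.83 ± 0.14 (adjusted p = 0.00071) and Kdelr3, which returns ER residents, by 0.70 ± 0.20 (adjusted p = 0.023). Of 19 genes of ER membrane insertion 1 fell at 2w (5.26%, near the 4.55% of all genes) and 4 at 12w (21.1% against 11.2%), Mmgt1 most (−0.88 ± 0.18, adjusted p = 0.0027). The lowest value at 12w, Mia2 at −1.64, rested on Wt replicate 4, at 60.4 CPM against 6.94 to 10.3 CPM in the other 12w libraries, and was −0.049 without it. That call was lost without 10 of the 12 libraries in turn. Kdelr3 no longer passed without any 12w Tg7 library or Wt 12w replicate 4 (0.50 to 0.72).

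The unfolded protein response is known to regulate genes of this machinery. A list of 14 genes was followed, which is not confined to that response. It holds transcription factors and sensors known to act on the machinery, and also the chaperone gene Hspa5 and the proteases Mbtps1 and Mbtps2. Of the 14, 5 fell at 2w (35.7%), Hspa5 among them, 7 fell at 12w (50%) and none rose. Among all tested genes 4.55% fell and 6.07% rose at 2w, and 11.2% fell and 12.5% rose at 12w. Xbp1 fell by 0.50 ± 0.12 (adjusted p = 0.014) and 0.49 ± 0.12 (adjusted p = 0.0081), Atf6b by 0.76 and 0.62, and Creb3 by 0.35 and 0.38. Under library-size scaling the Xbp1 and Atf6b calls were lost at both ages (−0.33 and −0.60 at 2w, −0.038 and −0.20 at 12w), and with insulin taken out of the library size at 12w (−0.32 and −0.46). Creb3l1, a membrane-bound factor of the secretory pathway, had 90.5, 49.8 and 62.9 CPM in 2w Wt against 36.1, 36.4 and 32.3 CPM in 2w Tg7, and 151, 167 and 128 CPM against 52.1, 55.1 and 56.1 CPM at 12w, and fell by 0.96 ± 0.18 (adjusted p = 0.0041) and 1.45 ± 0.18 (adjusted p = 7.7e-05). Hspa5, which encodes BiP, fell by 1.10 ± 0.22 at 2w (adjusted p = 0.0068) and gave −0.56 at 12w (adjusted p = 0.084). Atf6, Ern1 and Eif2ak3, the ER stress sensors, fell at 12w by 1.30, 0.91 and 0.55, and Wt replicate 4, at 370 CPM for Atf6 and 487 CPM for Ern1, was far above the other 2 Wt libraries (155 and 160 CPM, and 209 and 232 CPM). Without that library the 12w values shrank to −0.76 for Atf6 (adjusted p = 0.0012), −0.42 for Ern1 (adjusted p = 0.035) and −0.37 for Eif2ak3 (adjusted p = 0.068). Atf4, Creb3l2, Creb3l3, Creb3l4, Mbtps1 and Mbtps2 passed at neither age. Without single libraries some did: at 12w Hspa5 without Wt replicate 1 (−0.80), Atf4 without replicate 1 of Wt at 2w or at 12w (−0.95 to −0.75), Creb3l3 without Tg7 2w replicate 3 or Wt 12w replicate 1 (1.24 to 1.65) and Mbtps1 without Wt 12w replicate 4 (0.59), and at 2w Atf6 without that library (−0.47). The 2w Creb3 call was lost without any library but those of 12w Wt (−0.39 to −0.33) and its 12w call without Tg7 replicates 2 or 3 (−0.37 to −0.33), the 2w Xbp1 call without Wt replicate 1 or Tg7 replicate 3 (−0.45 to −0.44), the Ern1 call without any 12w Tg7 library (−0.91 to −0.89) and the Eif2ak3 call without Tg7 12w replicates 2 or 3 or Wt 12w replicate 4 (−0.53 to −0.37).

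The promoters of the members were read for the elements those factors are known to bind. RefSeq windows on GRCm38.p6, from 250 bases before to 50 bases after the start, were at hand for 62 members. Sec61a1 and Spcs3, which fell at both ages, had no such window and were not searched. The same holds for Sec11c, which fell at 2w only, and for Srp68, which fell at 12w only. The ER stress elements, CCAAT and CCACG with 9 bases between them (ERSE) and ATTGG and CCACG with 1 base between them (ERSE-II), were on neither strand in any of the 62, and were in 0.137% and 0.044% of 27025 genes. The shorter core TGACGTG of the unfolded protein response element has letters that cAMP-response elements share in part. It was on either strand in 6 of the 62 (9.68%) against 2.22% of the 27025 genes. CCAAT was in 41.9% of the members and 41.1% of the 27025 genes. Those 27025 are all genes with a RefSeq window, tested or not, whereas every member was tested. No share over tested genes alone was worked out, so these percentages compare unlike sets and do not show an excess of the core in the members. The 6 windows are shown 5′ to 3′ on the gene's strand with the core, or its reverse complement CACGTCA, in capitals.
Copb1, chr7:114254690-114254718, minus: ccgcccccttcCACGTCAgccaaggactt
Copb2, chr9:98563714-98563742, plus: cccggaagttcCACGTCAgtgggttggcc
Sec16b, chr1:157506741-157506769, plus: ttctgtgtggcTGACGTGgcacggcagtt
Sec23a, chr12:59011994-59012022, minus: ctcctccccttTGACGTGgcagaggcggc
Sec24d, chr3:123267459-123267487, plus: gcccgggcgccTGACGTGgcactagcaac
Srpr, chr9:35211179-35211207, plus: ggctgctggtgTGACGTGtcccgcgcttg
Of these 6 genes 1 fell at 2w and 2 fell at 12w (Sec16b and Sec24d), with medians of −0.25 and −0.22, against −0.19 and −0.15 in the 56 members without the core. A match is not a measured binding site, and no match says only that these letters are not in this window.

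Of the 76 members, 20 rose and 1 fell from 2w to 12w in Wt islets, where 7.90% of all tested genes rose and 7.91% fell (15.8% in all), and the median was 0.27 against 0.04. Signal peptidase rose in 4 of 5 subunits, Sec11c by 0.92 ± 0.12 (adjusted p = 0.00021), but the call of Spcs2 (0.40, adjusted p = 0.046) was lost without 11 of the 12 libraries in turn (0.33 to 0.43) and in 5 of 7 other settings. The p24 group rose in 5 of 10, among them Tmed6 by 1.54 ± 0.25 (adjusted p = 0.0011) and Tmed5 by 1.34 ± 0.18 (adjusted p = 0.00025). Srp9 rose by 0.83 ± 0.11 (adjusted p = 0.00018). COPII and COPI gave 1 rise each, Sec16b and Copz2, and that of Sec16b was lost without Wt 2w replicate 2 (0.57). Tram2 was the only member that fell, from 17.6 ± 1.57 to 8.77 ± 1.06 CPM (−1.01 ± 0.18, adjusted p = 0.0018), and the stellate and fibroblast markers, at 322 to 467 CPM in 2w and 87.5 to 149 CPM in 12w Wt libraries, moved with it. Their part in its value was not tested. Without 12w Wt replicate 4, 7 members fell.

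In Tg7 islets 25 members rose and 4 fell with age, against 7.02% and 6.01% of all tested genes (13.0% in all). The falls numbered 0 to 2 without Wt 2w replicate 3 or any Tg7 library of either age. All 5 signal peptidase subunits and 7 of 12 channel genes rose. Among the channel genes, the calls of Sec62 (0.43, adjusted p = 0.045), Ssr2 (0.48, adjusted p = 0.034) and Sec61g (0.76, adjusted p = 0.028) were lost without 8, 7 and 6 of the 12 libraries in turn, and those of Sec62 and Ssr2 also in 4 and 3 of 7 other settings. That of Sec11a was lost without Tg7 12w replicate 1 (0.40). Sec11c rose by 1.88 ± 0.12 (adjusted p = 1.5e-06), Spcs2 by 1.09 ± 0.13 (adjusted p = 0.00010) and Tmed6 by 2.94 ± 0.25 (adjusted p = 9.7e-06). These contrasts use the same libraries as those of the genotype and are not separate evidence. Scaled by library size alone, the Wt islets gave 8 rises and 9 falls and the Tg7 islets 15 rises, with the median of all genes at −0.35 in Wt and −0.13 in Tg7 islets. The sign of the Wt member median then turned, to −0.12, while it stayed 0.23 above the median of all genes, as under TMM.

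The markers of the islet cells moved with these results. Of 12 β-cell markers 10 fell at each age. The islets were checked by these markers: the β-cell list summed to 111992 to 181896 CPM in 2w Wt and 27853 to 52958 CPM in 2w Tg7 libraries, and the 7 α-cell genes to 25939 to 82597 CPM in all libraries with no gene called. At 12w 8 of 9 endothelial markers rose, from 417 to 539 CPM in Wt to 841 to 901 CPM in Tg7 libraries, and 6 of 9 stellate and fibroblast markers had already risen at 2w. The 24 acinar genes, markers of a tissue that makes much of this machinery, summed to 43.8 to 100 CPM in every library, with Ctrc, Amy2a5 and Amy2b at 0 in all, and of 13 tested 2 rose and 1 fell at 2w and 2 fell at 12w. Of ductal markers 1 rose at 2w and 2 at 12w, of macrophage markers 1 rose at 2w and 1 fell at 12w, of δ, PP and ε-cell markers 1 and of B and plasma cell markers 1 rose at 2w, and the 7 T and NK lymphocyte genes did not pass the filter on low counts: they summed to 0.160 to 1.10 CPM in 2w Wt, 1.49 to 21.8 CPM in 2w Tg7 and at most 1.01 CPM in 12w libraries. How far the change in cell types takes part in the member values was not tested.

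Libraries held 11610697 to 17515758 counts. The 12w Wt library numbered 4 differed most from its group, with insulin at 14.8% of counts against 27.0% and 30.0%. Without it the members gave 3 rises and 23 falls at 2w and 3 rises and 17 falls at 12w, and their 12w median was −0.063. This library takes no part in the 2w comparison, and the 2w median was −0.24 with and without it. The 4 groups share 1 estimate of the spread, through which a 12w library can change which genes pass at 2w. Fitted with the 2w libraries alone, the members gave 2 rises and 22 falls at 2w. Without 12w Wt replicate 2 there were 2 rises at 2w. Without any 2w Wt library or Tg7 12w replicates 1 or 2 there were 2 rises at 12w. Without Wt 2w replicate 1 or 3 the falls at 2w numbered 7, and without Tg7 12w replicates 1, 2 or 3 the falls at 12w numbered 9, 7 and 9.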

How the data were processed

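The authors prepared libraries with the NEB Ultra II kit, trimmed paired-end reads with Trimmomatic, aligned them to mm9 with TopHat2 2.0.11 and counted them with featureCounts. They deposited raw counts per Ensembl gene, without normalization, and all 12 columns were used. The featureCounts version and strandedness are given nowhere in the sources used here. Ensembl IDs were paired with symbols through the mm9 annotation, and exon lengths come from it.

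Genes passing filterByExpr (minimum count 10, minimum total 15) were fitted in edgeR 4.0.16 (R 4.3.3) as 4 group means with TMM factors, glmQLFit and glmQLFTest, with no term for replicate. The biological coefficient of variation common to all genes was 0.212. Each standard error is the size of the log2 value over the root of its F statistic. Medians per library used log2 of CPM plus 0.5. Precision rests on 3 pools per group. The script was tested on simulated counts.

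The members, gene lists and tests were chosen with earlier results of these data known. Named members were the Sec61, Sec62 and Sec63 genes, the 3 lowest and 2 highest called per role and age, those called at both ages or differing between ages, the highest per length in each role and those next to the count limit. Of other route genes the 3 lowest and 2 highest called per age were named, and all 14 of the list that holds the transcription factors and sensors. Others (Sec24d, Rpn1, Ddost, Srp14 and paralogues among them) were added after their values were seen.

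Alternatives were upper-quartile factors, library size alone, no filter, at least 50 counts in 3 libraries, DESeq2 1.42.0, replicate number as a block, each age alone and each library left out. Library size less the insulin counts was chosen after seeing the data. Same-numbered Wt and Tg7 libraries are not stated to be related. Their residuals correlated at −0.17 to −0.01, but so few correlations cannot exclude a shared origin. Only 12w Wt replicate 4 carries that number, so the block gives this library a term of its own, close to leaving it out. Promoter windows were not used here for the 14 members that the RefSeq table lacked.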

Additional observations from a re-analysis of the deposited data

Results flagged for a closer look

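The Tg7 effect on Sec11c, a catalytic subunit of signal peptidase, differed between the ages. The effect at 12w exceeded that at 2w by 0.96 on the log2 scale (edgeR adjusted p = 0.014), with all 3 Tg7 libraries below all 3 Wt libraries at 2w and overlapping groups at 12w. It was the only such gene of the 76 members (1.32%), a share near the 1.18% of all tested genes. No cause was tested.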

How the results depend on the processing

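With library size alone the members gave 2 rises and 5 falls at 2w, 20 rises and 2 falls at 12w, 4 differences between the ages, 8 rises and 9 falls with age in Wt and 15 rises with age in Tg7, and medians of −0.069 and 0.27. Other route genes then gave 5 calls at 2w. Under that scaling Srp9 (0.010), Srp68 (0.097) and Creb3 (0.072) changed sign at 12w, as did Spcs1, which then passed (0.41). Upper-quartile factors gave 1 rise at 2w, 2 differences, 2 falls with age in Wt and medians of −0.18 and −0.087. Library size less insulin counts gave 7 falls at 12w, 3 differences, 4 falls with age in Wt, 19 calls among other route genes at 12w and a 12w median of −0.00825. No filter gave 2 differences and 2 falls with age in Tg7, and the stricter filter 1 rise at 2w. DESeq2 gave 3 rises at 2w and 3 differences. Each age alone gave 2 rises and 22 falls at 2w, 2 rises at 12w, and 24 and 16 calls among other route genes.

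Replicate numbers are not stated to pair the libraries. With replicate number as a block the members gave 3 rises and 23 falls at 2w, 3 differences, 6 falls with age in Wt and a 12w median of −0.054. Other route genes then gave 24 calls at 2w. Since replicate 4 exists in 12w Wt only, this block is close to leaving that library out and not separate evidence. Leaving it out gave 3 rises and 23 falls at 2w and a 12w median of −0.063.

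Leaving out 1 library gave 0 to 3 rises and 7 to 23 falls at 2w, 2 to 4 rises and 7 to 18 falls at 12w, 1 to 2 differences, 14 to 27 rises and 1 to 7 falls with age in Wt, 18 to 30 rises and 0 to 5 falls with age in Tg7, 6 to 30 and 13 to 32 calls among other route genes, and medians of −0.26 to −0.21 and −0.23 to −0.063. Most of the upper ends came without 12w Wt replicate 4, and the group of 2 is then assumed to vary like the others. For named genes, 1537 values at other settings stayed on their side of the threshold, 108 lost the call, 86 gained it and 4 reversed, where a change of sign between uncalled values was not counted. The causes were not tested.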
